A study of Solanum lycopersicum with 8 samples.

Results

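Tomato (Solanum lycopersicum) leaves of the control treatment were compared between the 6 h and the 2 h time points, which gives the change of leaves that received no tunicamycin over the time course. The comparison rests on 4 of the 8 RNA-seq libraries of the series, namely control leaves at 2 h (2 biological replicates) and control leaves at 6 h (2 biological replicates). The other 4 libraries came from leaves that received tunicamycin (an inhibitor of protein N-glycosylation, used to stress the endoplasmic reticulum) for 2 h or 6 h. Of 29081 genes in the deposited count table, each represented by its transcript with the highest total count, 20272 had enough counts to be tested. Nothing used here states the cultivar, plant age, growth conditions, the handling of the control leaves or the hour of day of the harvests. Hour of day, time since the start of the treatment and time since handling therefore cannot be told apart in this comparison.

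Plants carry a circadian clock of transcription factors that repress or activate each other in turn. In Arabidopsis, MYB factors of the LHY and REVEILLE family peak around dawn, pseudo-response regulators follow through the day, and GIGANTEA and the evening complex peak towards dusk. Small heat shock proteins are chaperones that bind unfolding proteins and keep them from aggregating, and their transcripts in leaves follow temperature, light and other stresses as well as the clock.

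Totals were 4689769 and 46824604 counts for control 2 h (replicate 1, then replicate 2) and 21030108 and 122784850 counts for control 6 h, so replicate 1 was the shallower library at both times. Pearson's r of log2 CPM (counts relative to library size) across transcripts was 0.923 between the 2 h libraries, 0.932 between the 6 h libraries and between 0.895 and 0.95 across the times, so the time points did not form separate clusters of libraries by this measure. Genes of the photosystems, light harvesting and Rubisco, which mark leaf mesophyll, summed to between 38400 and 47500 CPM in the 4 control libraries. The summed CPM of the markers of other cells overlapped between the times, at 233 and 367 (2 h) against 323 and 249 (6 h) for vascular genes, 1510 and 1560 against 1700 and 1010 for epidermal genes, 238 and 260 against 295 and 153 for guard cell genes, and 6710 and 5850 against 8590 and 4820 for dividing cells. Cytosolic ribosomal protein genes differed more between the replicates of 6 h (90000 and 45900 CPM) than between the times, being at 70500 and 64400 CPM at 2 h. In whole leaves, fewer cells of a type and less RNA per cell cannot be told apart.

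Nearly all genes that changed were lower at 6 h. In edgeR's quasi-likelihood test with Benjamini-Hochberg adjustment (adjusted p under 0.05), 61 genes fell, which is 0.301% of the genes tested, and 1 gene rose, which is 0.00493%. Among the genes that fell were 4 morning clock factors and 11 small heat shock proteins, and the gene that rose was GIGANTEA. The level at 2 h was between 3.73 and 69.9 times that at 6 h among the 61 genes, with a median of 8.09 times. All 61 had both 6 h libraries below both 2 h libraries, an order found in 17.9% of all genes tested, while 15.4% had the opposite order. The median log2 fold change over all genes tested was 0.00, and 49.7% of them lay below zero. With p unadjusted and under 0.05 there were 734 lower and 469 higher genes, and DESeq2 called 172 lower and 13 higher. Without control 2 h replicate 1, 11 of the 61 genes were still called, against 30 without control 2 h replicate 2, 27 without control 6 h replicate 2 and 54 without control 6 h replicate 1. Of the 61, 41 and 47 were still called without tunicamycin 2 h replicate 1 or 2, which bear on the control comparison through the shared estimate of spread. Without control 6 h replicate 1, 129 genes were called lower and 56 higher, and without a low-count filter 223 lower and 75 higher.

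**Figure D1:**
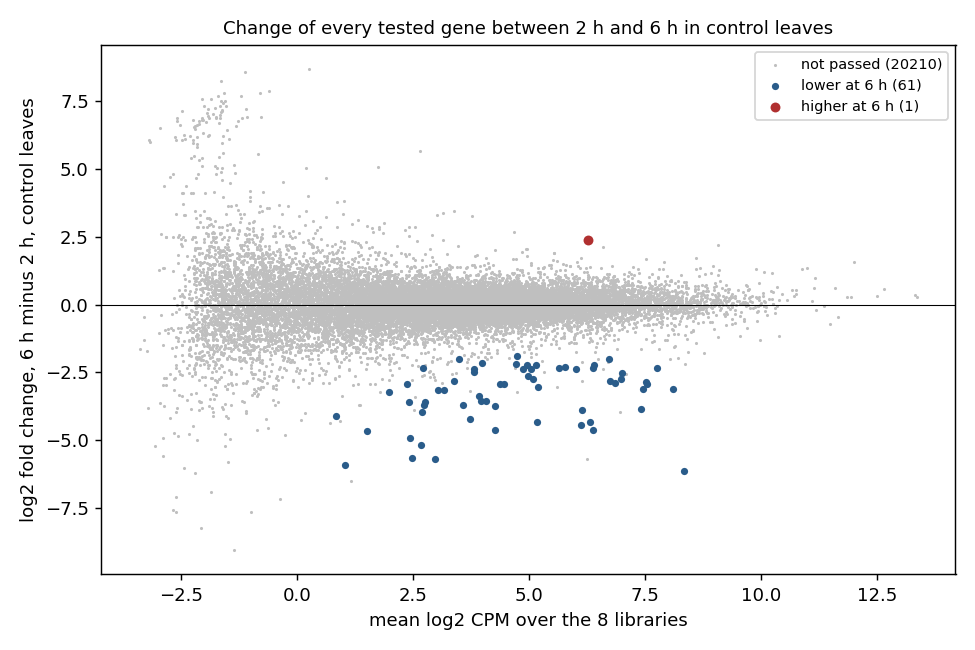
Each point is 1 of the 20272 tested genes, with its mean log2 CPM over the 8 libraries on the x axis and its log2 fold change (6 h minus 2 h, control leaves) on the y axis. The 61 genes that passed as lower reach from -1.90 to -6.13, and GIGANTEA at 2.36 is the gene that passed as higher.

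Of the 5 morning clock MYB factors tested, 4 fell (80.0%, against 0.301% of all genes tested) and 1 did not pass. The median log2 fold change was -3.95 for the 5. REVEILLE 8 (LOC101253545), which in Arabidopsis activates evening genes, stood at 9.36 and 11.5 CPM at 2 h and at 0.00 and 0.284 CPM at 6 h. The 6 h values rest on 0 counts in replicate 1 and 36 counts in replicate 2. Both 6 h libraries were far below both 2 h libraries, and the log2 fold change was -5.68 ± 0.69 (SE, adjusted p = 0.0021). REVEILLE 7 (LOC101255972), a close relative of LHY, went from 30.5 and 17.4 CPM to 0.906 and 0.995 CPM. Its 6 h libraries were almost equal, while its 2 h libraries differed from each other more widely (log2 fold change -4.62 ± 0.41, adjusted p = 0.000158).

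LHY (LOC101261662), a repressor of evening genes, went from 12 and 13.4 CPM to 1.36 and 0.442 CPM. The groups were well apart, with a log2 fold change of -3.95 ± 0.55 (adjusted p = 0.00548). REVEILLE 1 (LOC101261079), a factor that links the clock to auxin in Arabidopsis, went from 23.2 and 7.90 CPM to 1.11 and 1.18 CPM (log2 fold change -3.71 ± 0.52, adjusted p = 0.00548). The lower of its 2 h libraries still lay well above both 6 h libraries. REVEILLE 6 (LOC101259846), a relative of REVEILLE 8, overlapped between the times, at 7.32 and 3.32 CPM against 4.13 and 4.31 CPM (log2 fold change -0.27, adjusted p = 1.0). The calls of REVEILLE 8 and REVEILLE 7 passed in all 17 alternative settings. That of LHY ended without control 2 h replicate 2 (adjusted p = 0.0544), and that of REVEILLE 1 without control 2 h replicate 1 (0.0545) and without control 6 h replicate 2 (0.0584).

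Among the day-phased clock genes, 1 of 8 tested fell (12.5%, against 0.301% of all genes tested), with a list median of -0.80. This was LNK1 (LOC101244909), in Arabidopsis a coactivator that REVEILLE 8 recruits, at 45.2 and 58.1 CPM at 2 h and 8.40 and 13.5 CPM at 6 h. The replicates were close to each other next to the step between the times, which was -2.23 ± 0.37 on the log2 scale (adjusted p = 0.0161). Its call ended without control 2 h replicate 1 (0.0792) and without control 2 h replicate 2 (0.18). The pseudo-response regulator APRR9 (LOC101262866) had 4.88 and 11.7 CPM against 1.81 and 2.14 CPM, and APRR5 (LOC101250283) had 25.4 and 11.2 CPM against 7.45 and 9.98 CPM. Neither passed (log2 fold change -2.11, adjusted p = 0.183, and -1.03, adjusted p = 0.89), although the times did not overlap in either. The remaining 5 members were LNK1-like (-1.48), 2 genes named APRR2 (-0.57 and -0.25), XAP5 CIRCADIAN TIMEKEEPER (0.38) and TIME FOR COFFEE (0.50), and none passed.

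Of the 15 evening clock genes, 1 rose (against 0.00493% of all genes tested) and the other 14 did not pass. GIGANTEA (LOC101255788), a protein that in Arabidopsis stabilises clock and flowering regulators in the evening, stood at 14.6 and 37.0 CPM at 2 h and at 99.1 and 170 CPM at 6 h. The lower 6 h library was above the higher 2 h library, and the step was 2.75 on the log2 scale between the shallower and 2.20 between the deeper libraries. The fitted log2 fold change was 2.36 ± 0.44 (adjusted p = 0.0373). GIGANTEA passed in 10 of 17 alternative settings. The call ended with limma-voom, with the 4 control libraries fitted alone, without control 2 h replicate 1 (0.804), without control 2 h replicate 2 (0.0723), without control 6 h replicate 2 (0.124) and without either tunicamycin 2 h library. The related gene GIGANTEA-like (LOC101258346) overlapped between the times, at 61.2 and 128 CPM against 68.3 and 191 CPM.

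The evening list as a whole had a median log2 fold change of 0.45. Above zero lay 12 of 15 members, against 50.3% of all genes tested. In 7 members both 6 h libraries were above both 2 h libraries, an order found in 15.4% of all genes tested. At an unadjusted p under 0.05 there were 7 members, all higher, against 469 higher among the 20272 genes tested. The opposite order held in 2 members, ELF4-like (LOC100316888, -0.58) and ELF4-LIKE 3 (LOC101256688, -0.24). Further genes named APRR1 (LOC101259163, 0.09) and ELF3 (LOC101268174, 0.36) overlapped between the times. Adagio protein 3 (LOC101256908), of the family of blue light receptor F-box proteins that includes FKF1 of Arabidopsis, had 26.6 and 17.4 CPM at 2 h and 66.0 and 66.8 CPM at 6 h (log2 fold change 1.61 ± 0.36, adjusted p = 0.117). The DNA-binding subunit of the evening complex is encoded by 2 genes here, LOC101257473 (0.407 and 0.634 CPM against 4.23 and 3.86 CPM, log2 2.82) and PCL1 (17.9 and 16.2 CPM against 30.5 and 37.4 CPM, log2 1.00). Its partners ELF3 (LOC101267430, log2 0.83) and ELF4 (LOC101267898, 1.02) and the repressor APRR1 (LOC101259425, 0.86) were the other members at an unadjusted p under 0.05. The times did not overlap in any of these 5 genes, and none passed the adjusted test (adjusted p from 0.375 to 0.957).

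**Figure D2:**
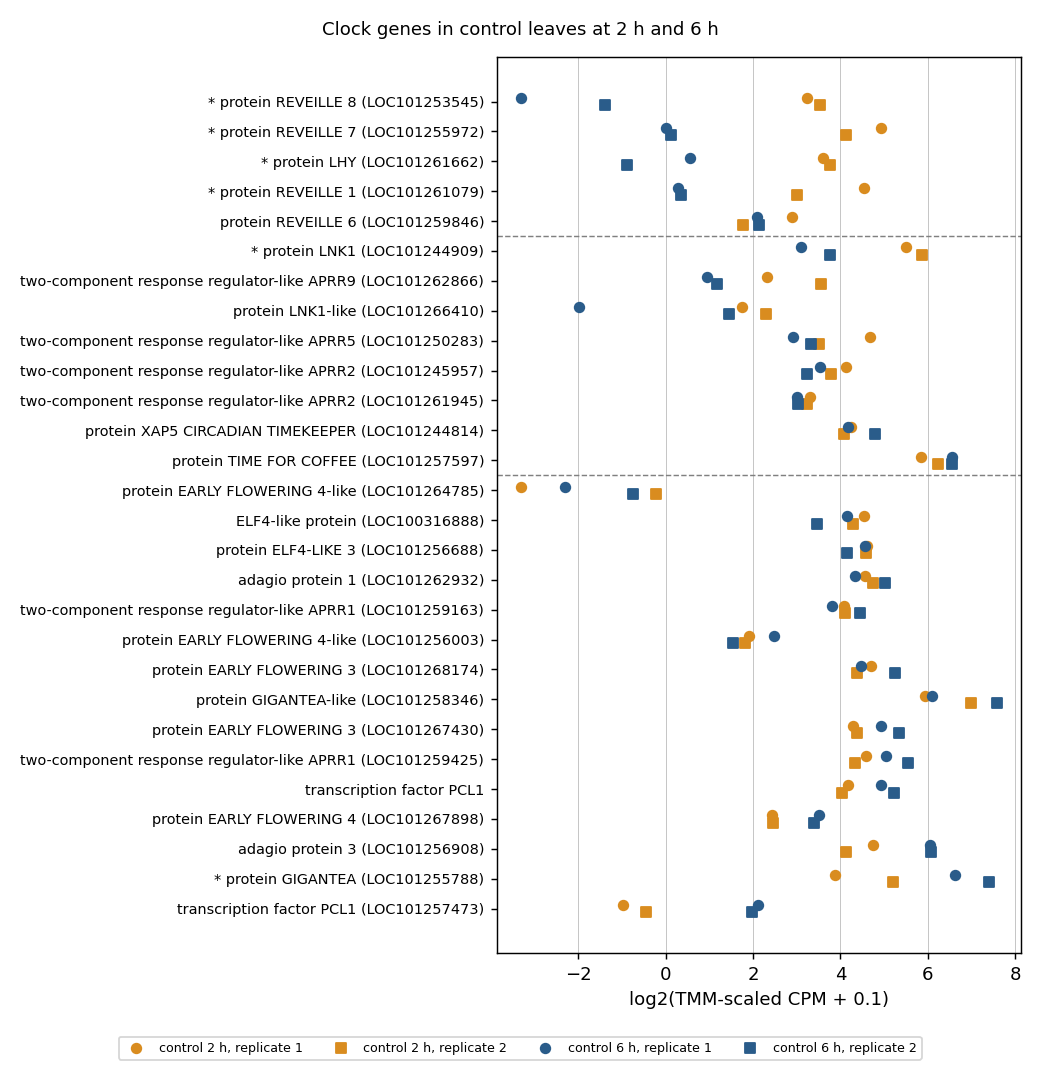
The TMM-scaled CPM of the 28 tested clock genes in the 4 control libraries is plotted as log2(CPM + 0.1), with 2 h in orange, 6 h in blue, circles for replicate 1 and squares for replicate 2. Dashed lines separate morning, day-phased and evening lists, and a star marks a gene that passed; 4 morning genes lie far to the left at 6 h, while GIGANTEA lies to the right.

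Photoperiod genes were a further small group. Of 41 photoperiod and B-box genes tested, 3 fell (7.32%, against 0.301% of all genes tested) and none rose. The median log2 fold change was -0.23. Cyclic dof factor 2 (LOC101243956) and cyclic dof factor 1 (LOC101262001) belong to a family that represses flowering genes in Arabidopsis. The first stood at 9.76 and 5.89 CPM at 2 h and 0.906 and 0.458 CPM at 6 h (log2 fold change -3.58 ± 0.54, adjusted p = 0.0094), and the other at 71.4 and 62.6 CPM against 12 and 13.5 CPM (-2.39 ± 0.35, adjusted p = 0.00774). CIP1, a CONSTANS interacting protein, went from 219 and 156 CPM to 32.2 and 20.7 CPM (-2.83 ± 0.41, adjusted p = 0.00686). In all 3 genes every 6 h library was well below every 2 h library. Each call ended without control 2 h replicate 1 (0.0986, 0.0986 and 0.098), that of cyclic dof factor 1 also without control 2 h replicate 2 (0.0564), and that of cyclic dof factor 2 also without control 6 h replicate 2 (0.0789). CONSTANS-LIKE 9-like (LOC101257930), from the B-box family, went the other way without passing, from 6.92 and 10.2 CPM to 20.6 and 27.8 CPM (log2 1.47, adjusted p = 0.191).

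Genes related to light were tested in 3 lists. The early light inducible protein ELIP, which binds chlorophyll and protects leaves in strong light, had 15.9 and 5.45 CPM at 2 h and 0.503 and 0.174 CPM at 6 h. The 2 h libraries differed from each other, yet the step was -4.86 between the shallower and -4.66 between the deeper libraries, with a fitted log2 fold change of -5.18 ± 0.75 (adjusted p = 0.00726). ELIP was the member of its list of 16 that fell (6.25%, against 0.301% of all genes tested). Its call ended without control 2 h replicate 1 (0.0642) and without control 6 h replicate 2 (0.069). The ultraviolet-B receptor gene UVR8 (LOC101248324) went from 29.7 and 26.5 CPM to 1.76 and 2.39 CPM (log2 fold change -3.73 ± 0.35, adjusted p = 0.000158) and passed in all 17 alternatives. Its replicates nearly coincided at both times.

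Of 67 photosystem, light-harvesting and Rubisco genes, 1 fell (1.49%, against 0.301% of all genes tested) and none rose. Below zero lay 52 of the 67, against 49.7% of all genes tested, and the list median was -0.40. In 34 of the 67 both 6 h libraries were below both 2 h libraries and in 4 both were above. Over all genes tested these orders were found in 17.9% and 15.4%. With p unadjusted and under 0.05, 16 were lower and 1 higher, against 734 and 469 of the 20272 genes tested. The summed level of the list overlapped between the times, at 47300 and 40200 CPM at 2 h and 38400 and 47500 CPM at 6 h. The chlorophyll a-b binding protein 1B-like gene (LOC101263969), an antenna protein, had 357 and 320 CPM against 42.2 and 52.6 CPM (log2 fold change -2.84 ± 0.54, adjusted p = 0.0476). It passed in 10 of 17 alternatives, and its call ended when any of the 4 control libraries or either tunicamycin 2 h library was left out. The antenna gene Cab-1D (149 and 93.3 CPM against 16 and 30.7 CPM) and psbS, which dissipates excess light energy (126 and 76.4 CPM against 32.7 and 28.2 CPM), did not overlap between the times but did not pass (log2 -2.36, adjusted p = 0.20, and -1.73, adjusted p = 0.238). The same was true of 2 chlorophyllide a oxygenase genes, which make chlorophyll b (LOC101244441, log2 -1.94, adjusted p = 0.117, and LOC101261422, -1.43, adjusted p = 0.139). None of 46 genes of photoreceptors and light signalling in the fixed list passed, with a median of 0.00. UVR8 is not a member of that list.

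Of 80 genes tested in the heat shock list, 13 fell (16.2%, against 0.301% of all genes tested) and none rose. The list median was -0.29, and its summed level overlapped between the times, at 15400 and 17300 CPM against 22600 and 13500 CPM. Its division by family was made after the values were seen, so the counts per family are a description only. Small heat shock proteins formed the largest group among the genes that fell. Of 26 tested, 11 fell, 15 did not pass and none rose. Their median log2 fold change was -2.84. There were 21 whose 6 h libraries were both below both 2 h libraries, an order found in 17.9% of all genes tested. Their summed level was 3080 and 1910 CPM at 2 h and 303 and 327 CPM at 6 h. The class II gene LOC544282 (Le-HSP17.6) stood at 689 and 530 CPM at 2 h and at 14.0 and 3.71 CPM at 6 h. This was the largest called change in the comparison, -6.13 ± 0.71 on the log2 scale (adjusted p = 0.00149), and it passed in all 17 alternatives.

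The other members that fell came from several classes and compartments. In class II, HSP17.4 went from 78.1 and 61.3 CPM to 5.74 and 1.46 CPM (log2 fold change -4.34 ± 0.63, adjusted p = 0.0152). The class III gene LOC101248279, whose relatives are nuclear, went from 93.6 and 56.1 CPM to 4.28 and 2.66 CPM (-4.45 ± 0.43, adjusted p = 0.00016). The class IV genes LOC101256272 (8.14 and 7.33 CPM against 0.503 and 0.134 CPM) and LOC101254946 (19.1 and 29.8 CPM against 0.906 and 1.61 CPM) gave -4.90 ± 0.68 and -4.23 ± 0.55. In all 4 genes both 6 h libraries were far below both 2 h libraries.

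The cytosolic class I genes that fell were HSP17-6 (395 and 170 CPM against 23.9 and 15.8 CPM, log2 -3.83), LOC101268020 (-3.54), HSP17.8 (681 and 348 CPM against 70.2 and 48.1 CPM, -3.12), LOC101268307 (-3.11) and Hsp20.0 (357 and 161 CPM against 29.2 and 39.5 CPM, -2.91). The mitochondrial gene MTSHP went from 223 and 155 CPM to 30.5 and 34.8 CPM (log2 fold change -2.53 ± 0.38, adjusted p = 0.00819). In each of these genes with values given, replicate 1 was above replicate 2 at 2 h, and both 6 h libraries were far below both. The chloroplast gene HSP21 had 37.6 and 10.9 CPM at 2 h and did not pass (log2 -3.22, adjusted p = 0.0638). A gene whose symbol names the endoplasmic reticulum, er-sHSP, gave -2.95 (adjusted p = 0.527) at under 3 CPM in every control library. Some of these genes are neighbours in the RefSeq annotation of assembly SLM_r2.1, with HSP17-6 next to Hsp20.0 and 4 genes from HSP17.8 on chromosome 6, HSP17.4 4 genes from LOC544282 on chromosome 8, and LOC101268307 next to LOC101268020 on chromosome 9. Where near-identical copies share reads, the count of a single gene is uncertain. Without control 2 h replicate 1, 5 of the 11 were still called, namely LOC544282, LOC101256272, LOC101248279, LOC101254946 and HSP17-6, with adjusted p from 0.0512 to 0.245 for the others. The call of HSP17.4 also ended without control 2 h replicate 2 (0.0564) and that of HSP17.8 without control 6 h replicate 2 (0.069).

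**Figure D3:**
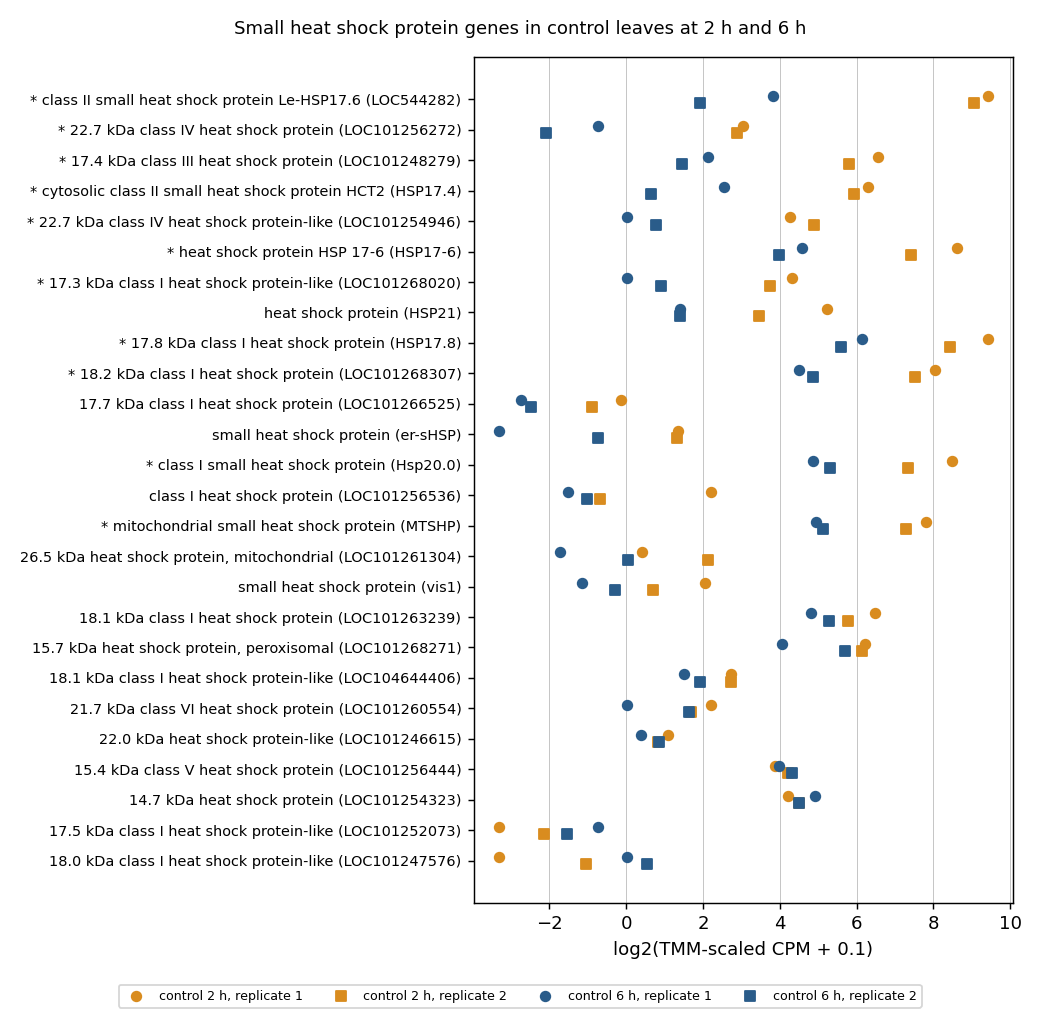
The TMM-scaled CPM of the 26 tested small heat shock protein genes in the 4 control libraries is plotted as log2(CPM + 0.1), with 2 h in orange, 6 h in blue, circles for replicate 1 and squares for replicate 2, ordered by log2 fold change. The 11 starred genes passed, all with both 6 h libraries to the left of both 2 h libraries.

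Among the larger chaperones few genes passed. Of 16 HSP70 family genes, which fold proteins with the use of ATP, 2 fell (12.5%, against 0.301% of all genes tested), with a family median of -0.18. These were LOC101255185 (26.9 and 21.5 CPM against 1.51 and 2.49 CPM, log2 fold change -3.55 ± 0.55, adjusted p = 0.0139) and hsc70.3 (53.7 and 45.5 CPM against 11.4 and 9.97 CPM, -2.22 ± 0.39, adjusted p = 0.0227). Leaving out a control library ended the call of LOC101255185 in each of 4 cases (adjusted p from 0.0659 to 0.129) and that of hsc70.3 in all but control 6 h replicate 1 (0.123 to 0.233). The summed level of the family overlapped between the times, at 6650 and 8710 CPM against 14000 and 7410 CPM. None of the 6 HSP90 genes (median -0.38) and none of the 21 heat stress transcription factors (median 0.26), which switch on heat shock genes, passed. A dnaJ protein homolog (LOC101259708), of the family of HSP70 partners, fell from 37.8 and 22.7 CPM to 7.19 and 8.81 CPM (-1.90 ± 0.37, adjusted p = 0.0487 by edgeR). It passed in 6 of 17 alternatives. The call ended when any of the 4 control libraries was left out, and also with limma-voom and with the 4 control libraries fitted alone. None of the 30 ER chaperone and folding genes passed (median -0.31).

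Of 98 sugar and starch genes, 2 fell (2.04%, against 0.301% of all genes tested) with a list median of -0.04. Whether lists with so few calls depart from the share over all genes was not tested. The bidirectional sugar transporter N3 (LOC101255592), of the SWEET family, had 2.85 and 3.44 CPM against 0.201 and 0.174 CPM (log2 fold change -4.09 ± 0.79, adjusted p = 0.048), and beta-amylase 3-like (LOC101259175), of the enzymes that break down starch, had 19.1 and 7.52 CPM against 0.704 and 2.05 CPM (-3.14 ± 0.55, adjusted p = 0.0226). Neither overlapped between the times. The transporter passed in 7 of 17 alternatives and the amylase in 11 of 17. The call of the transporter ended when any of the 4 control libraries was left out, and also with the 4 control libraries fitted alone. The call of the amylase ended without control 2 h replicate 1 (0.295), without either tunicamycin 2 h library, with limma-voom and in both fits of the 4 control libraries alone. Of 134 ethylene genes, 2 fell (1.49%, against 0.301% of all genes tested) with a median of -0.02. ACO5, an enzyme of the last step of ethylene synthesis, went from 161 and 122 CPM to 6.84 and 4.61 CPM (-4.63 ± 0.63, adjusted p = 0.00686).

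The times did not overlap in ACO5, but its call ended without control 2 h replicate 1 (0.0642), control 6 h replicate 1 (0.0732) or control 6 h replicate 2 (0.182). The ethylene-responsive factor gene RAP2-13 (LOC101250096) had 11.4 and 30.1 CPM against 4.33 and 3.39 CPM (log2 fold change -2.47 ± 0.47, adjusted p = 0.0409 by edgeR). It passed in 10 of 17 alternatives. The call of RAP2-13 ended without control 2 h replicate 2 or control 6 h replicate 2, and also with the 4 control libraries fitted alone. Of 129 auxin genes, SAUR78 (LOC101268293), of a family of small auxin-induced growth proteins, was the member that fell (0.775%, against 0.301% of all genes tested). It went from 30.3 and 20.7 CPM to 4.33 and 2.55 CPM (-2.91 ± 0.49, adjusted p = 0.0219), with no overlap, and ended without control 2 h replicate 1 (0.233), control 2 h replicate 2 (0.0851) or control 6 h replicate 2 (0.219). The auxin list median was -0.13.

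Among the 61 genes, 33 belonged to none of the 30 lists. L-ascorbate peroxidase 2 (LOC101258987), which removes hydrogen peroxide in the cytosol, had 28.3 and 36.7 CPM at 2 h and 3.67 and 4.80 CPM at 6 h. The deeper and shallower pairs gave nearly the same step, -2.92 and -2.93 on the log2 scale, and the gene passed in all 17 alternatives (-2.93 ± 0.34, adjusted p = 0.00148). Rubisco activase 1 (LOC101250725), which keeps the carbon-fixing enzyme active, went from 170 and 83.5 CPM to 4.48 and 12.5 CPM (-3.87 ± 0.61, adjusted p = 0.0199). Its 6 h libraries differed from each other, but both were far below 2 h, and its call ended without control 2 h replicate 1 (0.158).

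Enzymes of central metabolism were also present. Pyruvate decarboxylase, the first enzyme of ethanol fermentation, fell in 2 genes, LOC101247173 (214 and 81.3 CPM against 11.8 and 3.22 CPM, log2 fold change -4.32 ± 0.68, adjusted p = 0.0227) and LOC101246495 (47.2 and 20.3 CPM against 4.53 and 2.13 CPM, -3.36 ± 0.54, adjusted p = 0.0161). Both had replicate 1 above replicate 2 at each time. Cytoplasmic aspartate aminotransferase (LOC101244012) gave -2.88 ± 0.41 (252 and 179 CPM against 35.2 and 23.4 CPM, adjusted p = 0.00686), and fructose-bisphosphate aldolase FBA1, a sugar phosphate enzyme, gave -2.33 ± 0.38 (378 and 347 CPM against 78.4 and 65.5 CPM, adjusted p = 0.0152). Without control 2 h replicate 1 the calls of these 4 genes ended (0.0902 to 0.172), as did that of LOC101246495 without control 6 h replicate 2 (0.121) and that of FBA1 without control 2 h replicate 2 (0.117) or control 6 h replicate 2 (0.069).

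The regulators outside the lists included root phototropism protein 2 (LOC101259171), which in Arabidopsis works downstream of blue light receptors, at 102 and 117 CPM against 18.6 and 24.6 CPM (log2 fold change -2.33 ± 0.35, adjusted p = 0.00796). LOB domain-containing protein 40 (LOC101257056), a transcription factor, stood at 92.6 and 106 CPM against 26.3 and 14.6 CPM (-2.29 ± 0.37, adjusted p = 0.0161). Plant cysteine oxidase 2 (LOC101264995), of the enzymes that sense oxygen in Arabidopsis, had 52.1 and 42.8 CPM against 11.7 and 6.62 CPM (-2.38 ± 0.42, adjusted p = 0.0238). In these 3 genes both 6 h libraries were below both 2 h libraries, and their calls ended without control 2 h replicate 1 (0.0689 to 0.249) or control 2 h replicate 2 (0.0928 to 0.159), those of the last 2 also without control 6 h replicate 2 (0.0929 and 0.177). Dof22 (-2.17), a universal stress protein A-like gene (LOC101245588, -2.73), ABC transporter G family member 14 (LOC101252315, -2.35), which moves cytokinin in Arabidopsis, and a copper transporter 6-like gene (LOC101260645, -2.37) fell as well. Without control 2 h replicate 1 their calls ended too, and ABC transporter G family member 14 passed in 9 of 17 alternatives. Of the 61 genes, 8 are uncharacterized, with log2 fold changes as low as -5.89 (LOC101255116, from 10.6 and 2.96 CPM to 0.101 and 0.111 CPM, adjusted p = 0.011, and 0.169 without control 2 h replicate 1).

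Besides GIGANTEA, the described genes with the smallest p in the upward direction did not pass. They included elongation factor 1-alpha LOC101264700 (123 and 357 CPM against 1240 and 931 CPM, log2 2.18, adjusted p = 0.207), a stress-related protein (LOC101250630, 164 and 223 CPM against 699 and 578 CPM, log2 1.72, adjusted p = 0.263) and selenium-binding protein 2 (LOC101249583, log2 1.54, adjusted p = 0.315). In each the 6 h libraries lay above both 2 h libraries, as they did in 15.4% of all genes tested.

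The wound and herbivore defence list had the highest median of the protein-coding lists, 0.61. Above zero lay 29 of its 45 members, against 50.3% of all genes tested. In 19 members both 6 h libraries were above both 2 h libraries, an order found in 15.4% of all genes tested. None of the 45 passed in control leaves, and under tunicamycin the list median was -0.22. Arginase ARG1, an enzyme that deprives herbivores of arginine, had 10.2 and 11.7 CPM against 15.2 and 55.0 CPM (log2 1.68, adjusted p = 0.443), with 1 of the 6 h libraries far above the other. Wound-induced proteinase inhibitor 1 (LOC101246961) had 0.814 and 0.634 CPM against 3.52 and 3.29 CPM (log2 2.30, adjusted p = 0.879). No member passed among 43 jasmonate genes (median -0.11), 161 abscisic acid and dehydration genes (-0.09), 100 calcium genes (-0.09), 56 WRKY (0.03) and 44 NAC (-0.01) factors, 89 pathogenesis-related genes (-0.18), 196 cell wall genes (-0.24), 44 gibberellin and brassinosteroid genes (0.01), 33 nitrate and sulfate genes (0.04), 28 aquaporins (-0.15), 110 phenylpropanoid genes (-0.19) and 230 ribosomal protein genes (-0.03). The cell markers likewise had no member that passed among 24 vascular (0.07), 94 epidermal (-0.28), 28 guard cell (-0.17) and 120 dividing cell (0.00) genes, nor did the 16 ribosomal RNA genes (0.85). The words of the abscisic acid and dehydration list did not match the late embryogenesis abundant protein 2-like gene LOC101266250, which fell. It went from 4.48 and 1.94 CPM to 0.00 and 0.166 CPM (log2 fold change -4.66 ± 0.90, adjusted p = 0.048 by edgeR). That gene passed in 7 of 17 alternatives.

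**Figure D4:**
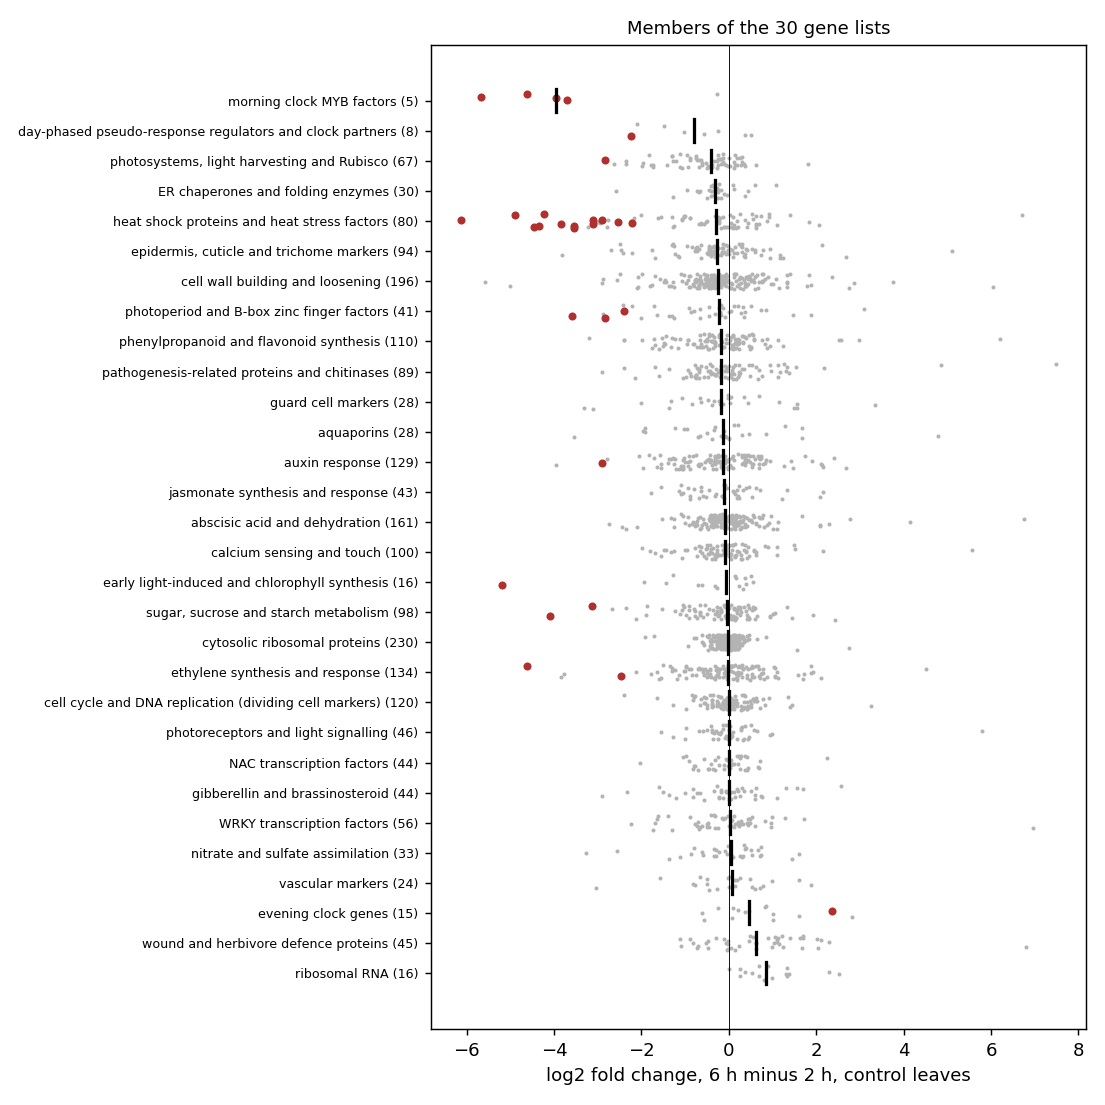
Each point is a tested member of 1 of the 30 gene lists (number tested in brackets), placed by its log2 fold change (6 h minus 2 h, control leaves), with red for genes that passed and a black bar for the list median. The morning clock median of -3.95 lies far from the other medians, which run from -0.80 to 0.85.

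Leaves under tunicamycin were harvested at the same times. Their libraries do not enter the control fold changes, but they share the estimate of spread behind the control calls, and leaving them out ends some of those calls. In those leaves 136 genes were lower at 6 h than at 2 h (0.671% of the genes tested) and 19 were higher (0.0937%). All but LOB domain-containing protein 40, whose log2 fold change was 0.00, of the 61 genes that fell in control leaves had a lower fitted level at 6 h under tunicamycin as well, with a median log2 fold change of -3.06 there against -3.02 in control leaves. Of the 61, 48 passed as lower under tunicamycin, which is 78.7% of the 61 and 35.3% of the 136. Without tunicamycin 2 h replicate 1 that number was 26, and without tunicamycin 6 h replicate 1 it was 29. Tunicamycin 6 h replicate 2 stood apart in its ribosomal RNA, which took 2.527% of its counts against 0.0745% in replicate 1, and in its top 10 transcripts (8.543% against 4.648%). Without that library the number was 35. The step was steeper in control leaves for 32 of the 61 genes and steeper under tunicamycin for 29.

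The morning factors repeated their step under tunicamycin. REVEILLE 8 went from 19 and 24 CPM to 0.431 and 0.137 CPM (log2 fold change -5.96, adjusted p = 0.000888), REVEILLE 7 gave -5.75, REVEILLE 1 -4.84 and LHY -3.81. LOC544282 went from 560 and 780 CPM to 12.3 and 4.98 CPM (-6.26, adjusted p = 0.000888), and the 26 small heat shock genes had a summed level of 3050 and 3630 CPM at 2 h and 332 and 377 CPM at 6 h. Of those 26 genes, 14 passed as lower under tunicamycin. GIGANTEA had 27.0 and 34.9 CPM against 116 and 118 CPM and did not pass there (log2 1.93, adjusted p = 0.0685), whereas adagio protein 3 did (1.85, adjusted p = 0.0303). The times did not overlap in GIGANTEA under tunicamycin either. The evening list as a whole had a median log2 fold change of -0.04 under tunicamycin, against 0.45 in control leaves. Under tunicamycin ELF3 (LOC101267430) gave 0.06, PCL1 0.39, ELF4 (LOC101267898) 0.70, APRR1 (LOC101259425) 0.77 and LOC101257473 1.48. GIGANTEA-like gave -0.67, and none of these genes passed there.

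The difference of the time step between control and tunicamycin leaves was tested directly as an interaction in the same edgeR fit, and 0 genes passed (0%), against 580 with p unadjusted and under 0.05. Neither DESeq2 nor limma-voom called a gene, while 33 passed without control 6 h replicate 1 and 79 without a low-count filter. Of the 61 genes, those with the smallest p for the difference were LOB domain-containing protein 40 and SAUR78. The first stood at 52.8 and 48.7 CPM at 2 h and 39.4 and 62.1 CPM at 6 h under tunicamycin (difference of the log2 steps -2.28 ± 0.51, unadjusted p = 0.000502, adjusted p = 1.0 by edgeR), and SAUR78 had 43.1 and 18.3 CPM against 32.5 and 15.6 CPM (-2.55 ± 0.66, unadjusted p = 0.00171, adjusted p = 1.0 by edgeR). Under tunicamycin the times overlapped in both genes, while in control leaves they did not. Among the 5 genes named for the smallest p for the difference, those other than LOB domain-containing protein 40 moved mainly under tunicamycin. An example is malate synthase (LOC101267103), an enzyme of the glyoxylate cycle. It had 20.7 and 31.2 CPM against 28.3 and 12.4 CPM in control leaves. Under tunicamycin it had 111 and 58.4 CPM against 13.6 and 7.51 CPM (difference 2.62 ± 0.64, adjusted p = 1.0 by edgeR). Further genes with a small unadjusted p moved mainly in control leaves. Patatin-like protein 1 (LOC101264485) gave log2 2.39 there and -0.56 under tunicamycin (unadjusted p = 0.00226 for the difference by edgeR).

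**Figure D5:**
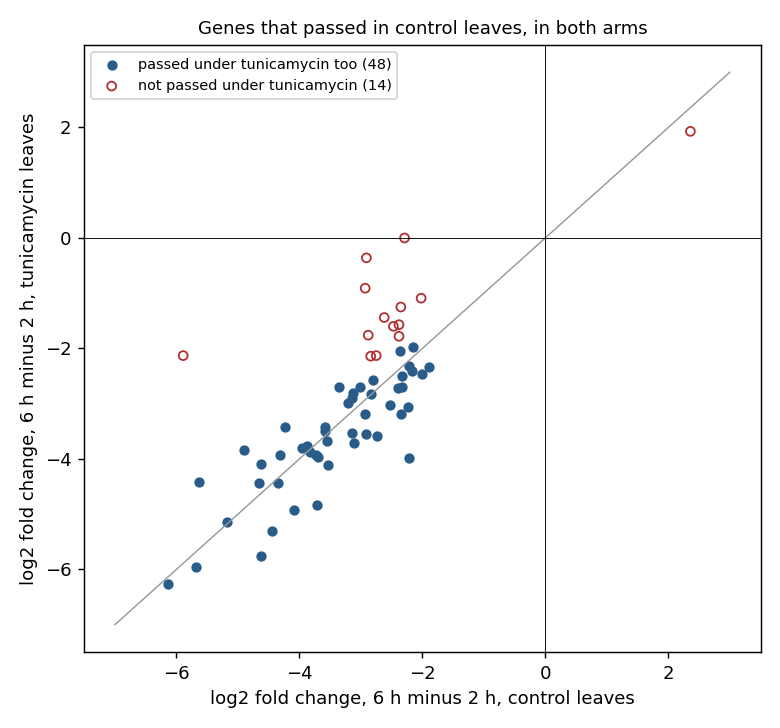
For the 62 genes that passed in control leaves, the log2 fold change (6 h minus 2 h) in control leaves is on the x axis and that in tunicamycin leaves on the y axis, with the grey line marking equal steps. The 48 filled points passed under tunicamycin too, and the open points, GIGANTEA at the upper right among them, did not.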

How the data were processed

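RNA-seq libraries of total leaf RNA were made with a directional kit, per the labels' protocols. The deposited table holds the authors' raw counts per RefSeq transcript. The submitters' processing notes name Trimmomatic 0.40, while aligner, counting program, strand setting and genome build were not given in the sources used here. The deposited comparison tables were not used.

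The table of 45845 transcripts was fitted in R 4.3.3 with edgeR 4.0.16. Filtering by filterByExpr (minimum count 10, minimum total 15) left 34483 transcripts. A robust quasi-likelihood model with 4 group means was fitted to all 8 libraries with TMM scaling, and contrasts were tested two-sided, with Benjamini-Hochberg adjustment over all transcripts and a threshold of 0.05. Genes were read from the transcript with the highest total count per symbol. In 454 rows the symbol was taken from the end of the description, since the deposited symbol column held another bracketed word. CPM are TMM-scaled, and the SE of a log2 fold change is its size divided by the square root of F. P-values rest on the spread between the biological replicates that the labels name. That spread was estimated over all 4 groups and moderated across transcripts (median prior degrees of freedom 10.6, against 4 residual). It therefore rests in large part on other transcripts and groups.

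The 30 gene lists were matched by words in the descriptions and symbols. The comparison, the members and the lists were chosen with earlier results of these data known. The named genes were, per direction, the 12 genes with a description that passed with the largest change (mean log2 CPM of at least 1, no overlap, filled to 10 by p where fewer passed), all clock genes, the 3 members of each other list with the smallest p, and the 5 with the smallest p of the interaction. Other genes named here, and the division of the heat shock list by family, were chosen after their values were seen. RefSeq assembly SLM_r2.1 placed 59 of 62 called genes and gave neighbours only. Promoter motifs were not analysed here. Alternatives included DESeq2 1.42.0, limma-voom (limma 3.58.1), other scaling, filters and covariates, and leaving out each library. The procedure was tested on simulated data.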

Additional observations from a re-analysis of the deposited data

How the results depend on the processing

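Of 17 alternatives, none turned the direction of a named gene that had passed. Against 62 genes called, there were 298 without a low-count filter, 185 with DESeq2, 95 with limma-voom and 97 with the replicate block in the 4 control libraries alone. With the replicate block in all 8 libraries the count was 58. The replicate numbers are not shown to pair the samples, since deviations of same-numbered control libraries at 2 h and 6 h correlated at -0.001. Leaving out each library in turn gave between 11 and 185 calls, the lowest without control 2 h replicate 1, the shallowest library, and the highest without control 6 h replicate 1. The number of the 61 lower genes that also passed under tunicamycin was between 26 and 52 over the libraries left out. The interaction gave 79 calls without the filter and between 0 and 33 over the libraries left out. The causes of these shifts were not tested. With a library left out, its group had 1 sample, which was assumed to vary like the other groups. Depth limits genes of a few CPM most in control 2 h replicate 1, with 4689769 counts.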

Other observations

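Genes of fermentation and low oxygen, a list drawn up after the values of the called genes had been seen and which holds 4 of them, had a median log2 fold change of -0.37 in control leaves over 30 tested members. Of these, 4 fell, namely both pyruvate decarboxylase genes, plant cysteine oxidase 2 (LOC101264995) and LOB domain-containing protein 40 (LOC101257056), none rose and 26 did not pass. Since those 4 prompted the list, its counts are a description only. Of the 30 members, 18 lay below and 12 above zero, while 49.7% of all genes tested lay below zero. The alcohol dehydrogenase gene ADH2, which completes ethanol fermentation, stood at 333 and 61.5 CPM at 2 h, far apart, and at 4.83 and 2.88 CPM at 6 h. Its log2 fold change was -5.69 (adjusted p = 0.139, edgeR), ran from -6.50 to -4.03 over the alternatives and passed in 9 of 17 of them. A further LOB domain-containing protein 40 gene (LOC101244335) gave -2.79 (adjusted p = 0.068, edgeR), and 2 further plant cysteine oxidase 2 genes, LOC101247510 and LOC101258715, gave -2.40 and -1.30 without passing. Plant cysteine oxidase 4 (LOC101246476, 0.45), plant cysteine oxidase 3 (LOC101267102, 0.39) and the hemoglobin gene Glb2 (0.52) lay above zero and did not pass either. The summed level of the 30 genes was 1830 and 1210 CPM at 2 h and 737 and 843 CPM at 6 h, with no overlap between the times. ADH2 alone made up 333 and 61.5 CPM of the 2 h sums. The 4 genes that prompted the list are part of the sums, so the order of the sums is a description only. Under tunicamycin 2 members passed as lower, the median was -0.22, and the sums were 1410 and 1600 CPM against 932 and 906 CPM.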
